A study of Homo sapiens with 16 samples.

Results

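The 29 genes described here carry out cholesterol synthesis and sterol movement in human cells, or control them through SREBP, the sterol regulatory element binding protein. They were taken by symbol from a list chosen by known function, and 28 of the 29 had enough reads to be tested among the 14092 genes kept of 60662 gene identifiers in the tables. By role they comprise 7 genes of the mevalonate arm, 11 of the squalene and sterol arm, 7 of SREBP control, and 4 of sterol movement and lipid handling. RNA-seq libraries were made from Jurkat E6-1, a human T cell leukaemia line that the labels call a lymphoma, with the wild-type genotype. Peroxide libraries (n = 8) came from cells resuspended in phosphate-buffered saline with 10 µM hydrogen peroxide and harvested at 4 h, and control libraries (n = 8) came from untreated cells at time 0. The labels give 10% serum (FBS) for every library, and the loss of medium in the peroxide cells is read from the saline step. The effects of peroxide, saline, the loss of serum-containing medium and the elapsed time cannot be told apart in this design. A saline group without peroxide was not analysed here. Both groups were split evenly over 2 batches named by the deposited tables, with replicates 5 to 8 in batch 2 and replicates 1 to 4 in batch 1. The meaning of these batches was not stated in the labels.

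Cells build cholesterol from acetyl units through mevalonate and isoprenoid phosphates to squalene, which is closed into lanosterol and trimmed to cholesterol. When sterol in the endoplasmic reticulum is low, SCAP escorts the SREBP precursors to the Golgi, where the proteases encoded by MBTPS1 and MBTPS2 cut them and release a transcription factor that turns on the enzymes of the pathway. When sterol is high, the INSIG proteins hold SCAP in the endoplasmic reticulum. Dividing T cells depend on this route for new membrane.

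The CCAAT box, bound by the factor NF-Y, and the sterol regulatory element, here searched as CCAAT and TCACNCCAC on both strands, were looked for in the 250 bases before each annotated start in RefSeq, build GRCh38.p14. The windows below were chosen to show the 2 members with the highest per-length level after peroxide among those past a 2-fold rise (HMGCS1, then IDI1), the transcription factor gene with a match to the sterol regulatory element (SREBF2), and the most reduced member (MBTPS2). Capitals mark a match in either direction, so that ATTGG is CCAAT read on the other strand. For IDI1 and HMGCS1 the window is 1 of several listed starts, and the windows shown are ones with a match. The other HMGCS1 window, chr5:43313182-43313431, held no CCAAT. Of the other IDI1 windows, chr10:1056705-1056954 held none and chr10:1048887-1049136 held 3.
HMGCS1, chr5:43313413-43313662, minus strand: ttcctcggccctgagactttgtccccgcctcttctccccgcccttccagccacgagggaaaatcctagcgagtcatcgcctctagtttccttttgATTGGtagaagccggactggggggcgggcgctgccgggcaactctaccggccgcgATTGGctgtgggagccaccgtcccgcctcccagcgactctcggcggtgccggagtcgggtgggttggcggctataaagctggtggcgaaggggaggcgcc
IDI1, chr10:1049120-1049369, minus strand: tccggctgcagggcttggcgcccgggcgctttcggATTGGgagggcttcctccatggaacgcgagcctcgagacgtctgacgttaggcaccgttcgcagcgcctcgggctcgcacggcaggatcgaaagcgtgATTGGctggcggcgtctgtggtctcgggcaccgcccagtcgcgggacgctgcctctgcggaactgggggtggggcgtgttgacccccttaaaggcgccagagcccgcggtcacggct
SREBF2, chr22:41832855-41833104, plus strand: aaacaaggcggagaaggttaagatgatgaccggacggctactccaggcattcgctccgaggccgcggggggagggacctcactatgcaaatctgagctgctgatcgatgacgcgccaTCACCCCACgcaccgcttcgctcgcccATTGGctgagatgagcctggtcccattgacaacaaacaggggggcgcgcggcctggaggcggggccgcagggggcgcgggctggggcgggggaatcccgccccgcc
MBTPS2, chrX:21839367-21839616, plus strand: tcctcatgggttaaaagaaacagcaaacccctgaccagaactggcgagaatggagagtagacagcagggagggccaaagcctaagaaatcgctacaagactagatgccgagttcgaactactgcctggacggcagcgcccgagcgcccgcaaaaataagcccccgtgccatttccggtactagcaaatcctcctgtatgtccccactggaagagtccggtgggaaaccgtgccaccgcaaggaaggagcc
The HMGCS1 window held CCAAT at 155 and 100 bases before the start, and the IDI1 window at 215 and 117 bases. The SREBF2 window held the sterol regulatory element at 133 bases and CCAAT at 106 bases before the start, without overlap, while the MBTPS2 window held neither.

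Reads assigned to genes ranged over all libraries from 5556553 to 15720881. The share of reads that named no gene was 51.2% ± 3.07 in peroxide and 46.8% ± 4.53 in control libraries (SD, n = 8 each; two-sided exact permutation p = 0.0430). Reads not aligned uniquely made up 40.8% ± 4.46 in peroxide and 32.8% ± 0.942 in control libraries of batch 2 (SD, n = 4 each; exact permutation p = 0.0286, the smallest that 4 against 4 allows), and 35.9% ± 2.83 in peroxide and 35.3% ± 7.98 in control libraries of batch 1 (exact permutation p = 0.943). The part of these shares in the results below was not tested beyond leaving out the 2 libraries with most such reads. Markers of the line were in place. The summed level of 12 T cell genes spanned 3448 to 4561 CPM (reads scaled to a common library size) in peroxide and 3441 to 4537 CPM in control libraries. None of the 12 was higher and 2 were lower after peroxide, against 24.1% and 24.3% of all genes tested. The 2 were CD3G, averaging 122 CPM in peroxide and 172 CPM in control libraries, and CD2, at 109 and 130 CPM. Of 5 B cell markers 1, CD79A, was abundant enough to test, at a mean of 43.6 CPM in peroxide and 40.7 CPM in control libraries. The summed level of the 5 spanned 31.5 to 55.7 CPM in peroxide and 29.9 to 50.5 CPM in control libraries. Of 6 myeloid markers the 2 tested, CD14 and ITGAM, were both higher. They averaged 3.15 and 4.32 CPM in peroxide and 0.267 and 0.161 CPM in control libraries. They thus passed the filter on low counts through the peroxide group, so their calls carry no weight of their own. The summed level of all 6 spanned 4.46 to 14.2 CPM in peroxide and 0.125 to 1.10 CPM in control libraries. The summed fibroblast markers spanned 2.77 to 6.52 CPM in peroxide and 3.19 to 4.70 CPM in control libraries, with COL1A2 at 0 reads. Of the erythroid markers, HBA1, HBA2, HBB and ALAS2 summed to 0.209 to 0.867 CPM in peroxide and 0 to 0.122 CPM in control libraries, with HBB at 0 reads. The summed liver markers spanned 0.435 to 1.70 CPM in peroxide and 0 to 0.343 CPM in control libraries. The part of these genes in the results was not tested.

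After 4 h with peroxide, 13 of the 28 members tested were higher and 4 were lower. Over all genes tested, 24.1% were higher and 24.3% were lower, so the share of members that rose was above the background and the share that fell was below it. Calls came from edgeR's quasi-likelihood test, which adjusted for batch, at a Benjamini-Hochberg adjusted p under 0.05 over all genes tested. The labels call the libraries biological replicates, and the p-values weigh each change against the spread between these libraries. In RNA from whole cultures, a change in the number of cells that express a gene cannot be told apart from a change in RNA per cell. The median log2 fold change was 0.26 over the members and -0.015 over all genes. The 13 that rose were enzymes of the pathway and the sterol carriers STARD4 and NPC1, while the 4 that fell were all in the SREBP control group. Of the members, 3 rose at least 2-fold (IDI1, MSMO1 and HMGCS1), a size of rise that 5.93% of all genes passed. Within batch 2 all peroxide libraries were above all controls for 3 of 28 members and below them for 2. Of all genes, 17.8% and 18.8% had these orderings, so they were no more common among the members. Within batch 1 the counts were 11 and 2, against 17.9% and 16.4% of all genes.

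**Figure D1:**
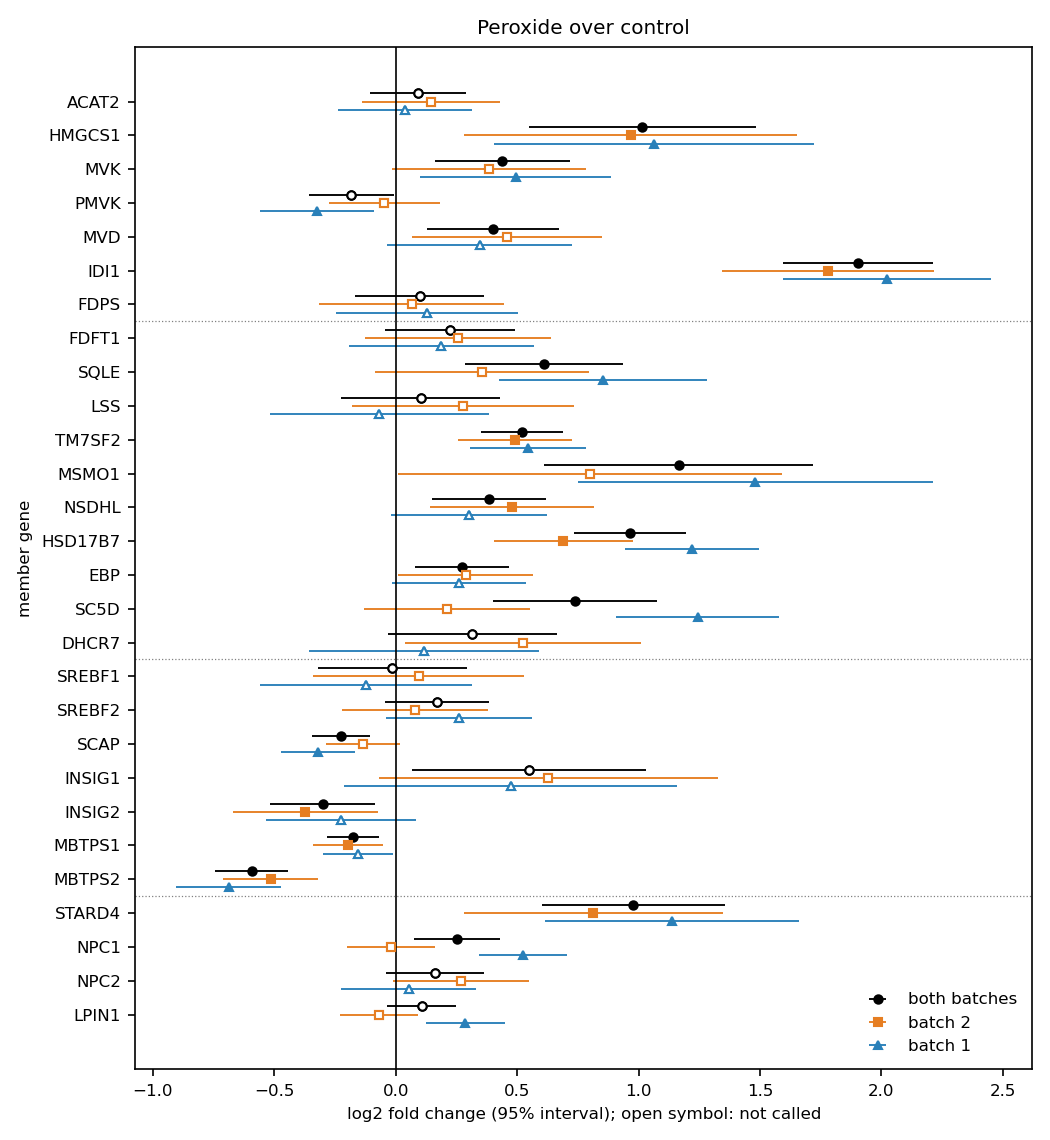
Log2 fold change of each tested member, peroxide over control, with its 95% interval, grouped by role. Circles give both batches together, squares batch 2 and triangles batch 1. Filled symbols passed the adjusted p threshold of 0.05 and open symbols did not. Among the circles, IDI1 stands farthest to the right at 1.90, and MBTPS2 farthest to the left at -0.59.

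In the mevalonate arm, 4 of 7 members rose and none fell. IDI1, the isomerase that turns isopentenyl diphosphate into its reactive isomer, had 282, 149, 170.1 and 247 CPM in the peroxide libraries of batch 2, against 84.6, 50.3, 46.5 and 67.2 CPM in the controls of batch 2. In batch 1 it had 512, 379.8, 512 and 667 CPM in peroxide libraries, against 135, 97.0, 146 and 130.2 CPM in controls. All 8 peroxide libraries were above all 8 controls for IDI1. It rose 3.74-fold, a log2 change of 1.90 ± 0.15 (SE; edgeR adjusted p = 9.36e-10).

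HMGCS1, the cytosolic synthase that makes the HMG-CoA on which the pathway draws, had 252, 64.4, 82.0 and 140.0 CPM in the peroxide libraries of batch 2, against 124, 41.2, 45.3 and 68.2 CPM in the controls. The batch 1 values were 712, 702, 743 and 878 CPM in peroxide libraries, against 322, 318, 429.6 and 382 CPM in controls. The groups overlapped in batch 2 and did not overlap in batch 1, and the controls of batch 1 were above all peroxide libraries of batch 2. HMGCS1 rose 2.02-fold overall (log2 change 1.02 ± 0.23 SE; edgeR adjusted p = 0.000817), and the call was lost without the batch term (edgeR adjusted p = 0.184) and in batch 2 fitted alone (0.0623). MVK, which phosphorylates mevalonate, rose by a log2 change of 0.44 ± 0.13, and MVD, which decarboxylates the diphosphate, by 0.40 ± 0.13 (edgeR adjusted p = 0.00981 and 0.0148). PMVK, the kinase between them, averaged 50.6 ± 7.42 CPM in peroxide and 57.3 ± 6.85 CPM in control libraries (SD, n = 8 each; log2 change -0.18, edgeR adjusted p = 0.0794). ACAT2, the cytosolic thiolase at the head of the arm, and FDPS, the farnesyl diphosphate synthase at its end, had log2 changes of 0.09 and 0.10, with 95% intervals of -0.11 to 0.29 and -0.17 to 0.36.

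In the squalene and sterol arm, 7 of 10 members tested rose and none fell. MSMO1, the sterol C4-methyl oxidase, had 90.3, 18.9, 25.7 and 43.3 CPM in the peroxide libraries of batch 2, against 41.0, 16.8, 19.3 and 27.6 CPM in the controls. For batch 1 the levels were 213, 128, 183 and 242 CPM in peroxide libraries, against 59.7, 38.1, 96.7 and 77.3 CPM in controls. The groups overlapped in batch 2, and all 4 peroxide libraries were above the controls in batch 1. Its log2 change was 1.17 ± 0.27 (SE; edgeR adjusted p = 0.00105). NSDHL and HSD17B7 act with MSMO1 in the removal of the C4 methyl groups, and both rose, by log2 changes of 0.38 ± 0.11 and 0.97 ± 0.11 (edgeR adjusted p = 0.00748 and 3.28e-07). HSD17B7 had 22.5, 17.2, 17.2 and 23.5 CPM in the peroxide libraries of batch 2, against 13.0, 11.4, 13.6 and 11.8 CPM in the controls. Batch 1 gave 34.4, 40.9, 45.2 and 43.3 CPM in peroxide libraries, against 13.8, 18.4, 19.6 and 18.8 CPM in controls. The groups did not overlap within either batch. HSD17B7 has an annotated pseudogene copy, so reads could be shared or lost between the copies and its level is uncertain.

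TM7SF2, a sterol C14 reductase, had 46.0, 45.3, 40.7 and 48.1 CPM in the peroxide libraries of batch 2, against 28.3, 33.4, 36.2 and 29.5 CPM in the controls, and 36.5, 51.8, 54.0 and 43.1 CPM in the peroxide libraries of batch 1, against 32.9, 29.5, 29.6 and 34.4 CPM in the controls. All 8 peroxide libraries were above all 8 controls (log2 change 0.52 ± 0.08 SE; edgeR adjusted p = 1.68e-05). IDI1 and TM7SF2 were the only members with groups that did not overlap over all 16 libraries, an ordering that 6.76% of all genes had upward and 4.49% downward, with no member among those below. SQLE, the squalene epoxidase, rose by a log2 change of 0.61 ± 0.16 (edgeR adjusted p = 0.00271), SC5D, the sterol C5 desaturase, by 0.74 ± 0.16 (0.000713), and EBP, the sterol isomerase, by 0.27 ± 0.09 (0.0197). FDFT1, the squalene synthase, LSS, the lanosterol synthase, and DHCR7, the reductase of the last step of one branch, were not called, with log2 changes of 0.22, 0.10 and 0.31 and 95% intervals of -0.05 to 0.49, -0.22 to 0.43 and -0.03 to 0.66. CYP51A1, the lanosterol demethylase, had 22 reads in all peroxide libraries and 32 in all control libraries and was not tested. In the annotation (GENCODE 29), 83.2% of its exon bases lie under exons of other genes, and 79.4% under exons on the same strand, so these reads are no measure of its expression.

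Among the SREBP control genes, none of 7 rose and 4 fell. MBTPS2, the intramembrane protease of the second SREBP cut, had 30.3, 25.1, 27.7 and 24.9 CPM in the peroxide libraries of batch 2, against 40.5, 39.2, 38.0 and 36.7 CPM in the controls. In batch 1 it had 15.2, 15.5, 12.3 and 14.0 CPM in peroxide libraries, against 21.6, 21.0, 24.9 and 23.9 CPM in controls. The groups did not overlap within either batch, and the lowest peroxide library of batch 2 was level with the highest control of batch 1. MBTPS2 fell to 0.663 times the control level (log2 change -0.59 ± 0.07 SE; edgeR adjusted p = 7.99e-07). Of its exon bases, 13.4% lie under exons of YY2 and another gene on the same strand.

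SCAP, the sterol-sensing escort, had 121, 131, 129 and 120.5 CPM in the peroxide libraries of batch 2, against 131, 144, 146 and 129 CPM in the controls, and 112, 132, 139.5 and 124 CPM in the peroxide libraries of batch 1, against 163, 155, 153 and 160.2 CPM in the controls. The groups overlapped in batch 2 and did not in batch 1. SCAP changed by -0.23 ± 0.06 on the log2 scale, MBTPS1, the protease of the first SREBP cut, by -0.18 ± 0.05, and INSIG2, a retention factor, by -0.30 ± 0.10 (edgeR adjusted p = 0.00235, 0.00665 and 0.0206). The INSIG2 call was lost without control replicate 3 (edgeR adjusted p = 0.0546). INSIG1, the other retention factor and itself a known SREBP target, had 417, 90.2, 144 and 279 CPM in the peroxide libraries of batch 2, against 249, 109, 90.5 and 157 CPM in the controls. The batch 1 values were 462, 475, 529.6 and 637 CPM in peroxide libraries, against 343, 292, 481 and 399 CPM in controls. The groups overlapped in both batches, and INSIG1 was not called (log2 change 0.55 ± 0.23 SE, 95% interval 0.07 to 1.03; edgeR adjusted p = 0.0560). It passed the threshold without peroxide replicate 6 (edgeR adjusted p = 0.0100) or 7 (0.0345) and without control replicate 3 (0.0452) or 5 (0.0169). SREBF2, which encodes the SREBP tied most closely to cholesterol synthesis, and SREBF1, which encodes the forms tied to fatty acid synthesis, had log2 changes of 0.17 and -0.014, with 95% intervals of -0.04 to 0.39 and -0.32 to 0.29.

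Of the 4 genes of sterol movement and lipid handling, 2 rose and none fell. STARD4, a soluble sterol carrier and known SREBP2 target, had 123, 68.0, 59.8 and 73.1 CPM in the peroxide libraries of batch 2, against 64.7, 35.3, 36.2 and 49.8 CPM in the controls. For batch 1 the levels were 196, 87.3, 146 and 176 CPM in peroxide libraries, against 72.3, 40.7, 82.8 and 76.7 CPM in controls. The groups overlapped in batch 2 through peroxide replicate 7 and control replicate 5, and did not overlap in batch 1. STARD4 rose by a log2 change of 0.98 ± 0.18 (SE; edgeR adjusted p = 0.000123). NPC1, the lysosomal membrane protein that exports cholesterol, rose by 0.25 ± 0.09 over all libraries (edgeR adjusted p = 0.0192), a call lost without control replicate 1 (0.0529). NPC2, its soluble lysosomal partner, and LPIN1, a phosphatidate phosphatase, had log2 changes of 0.16 and 0.11, with 95% intervals of -0.04 to 0.36 and -0.03 to 0.25.

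Levels per kilobase of annotated exon allow different genes to be set side by side. They are given as means of the 8 libraries of each group, with the batches pooled. On these means FDFT1 was the most abundant member in both groups, at 125 CPM per kb in peroxide and 108 CPM per kb in control libraries. INSIG1 was second in both groups, at 104 CPM per kb in peroxide and 72.6 CPM per kb in control libraries. On the pooled means HMGCS1 was at 95.01 CPM per kb in peroxide and 46.0 CPM per kb in control libraries. FDPS was at 65.8 CPM per kb in peroxide and 61.0 CPM per kb in control libraries. The pooled mean of HMGCS1 was thus above that of FDPS after peroxide and below it in controls. The order of HMGCS1 and FDPS after peroxide did not hold in batch 2. There HMGCS1 averaged 134 CPM over 4702 exon bases, and FDPS 149 CPM over 3718 exon bases. IDI1 stood at 83.9 CPM per kb in peroxide and 21.7 CPM per kb in control libraries. MBTPS2 was the lowest of the members tested in peroxide libraries, at 2.31 CPM per kb, against 3.44 CPM per kb in controls. Of the exon bases of ACAT2, 52.3% lie under exons of SOD2, TCP1 or another gene on the opposite strand, while for FDPS 18.6% lie under RUSC1-AS1, for HMGCS1 14.95% under AC114947.2 and for IDI1 14.8% under IDI2-AS1, all on the opposite strand. The strand setting of the counting was not stated, so the reads of such pairs may be mixed or may be left out as ambiguous.

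**Figure D2:**
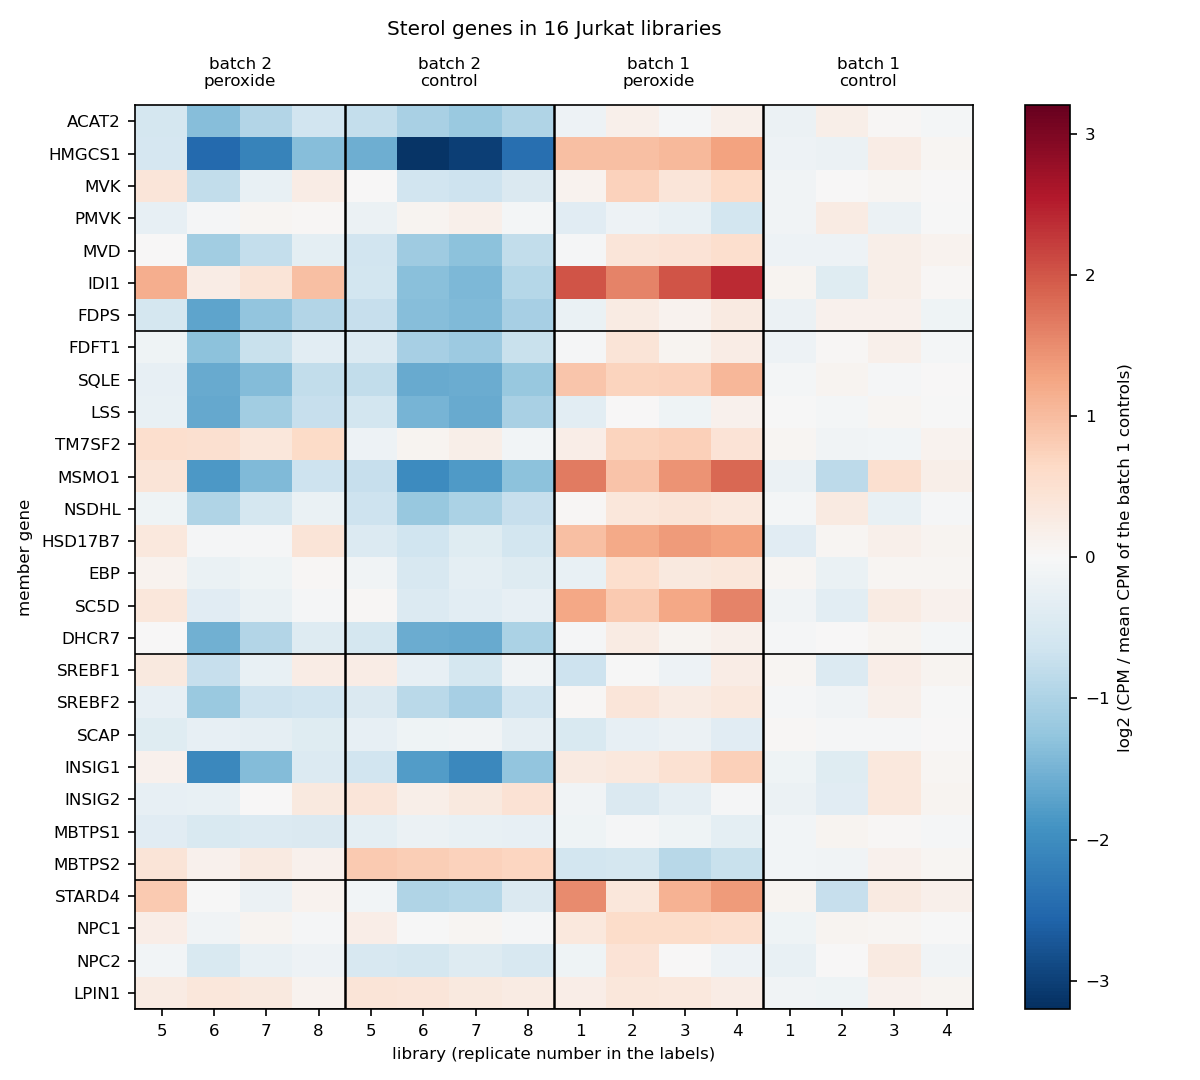
Colour shows the log2 ratio of each library's CPM to the mean CPM of the controls of batch 1 for each tested member, with members in rows and libraries in columns, peroxide left of control within each batch. Blue (below the batch 1 controls) fills most enzyme rows in batch 2, IDI1 is red (above them) in all peroxide libraries, and MBTPS2 is blue in the peroxide libraries of batch 1.

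The batches differed in these genes before any treatment. In control cells, 18 of 28 members were lower and 2 were higher in batch 2 than in batch 1, where 20.5% of all genes were lower and 22.1% higher (edgeR's quasi-likelihood test of the batch term in controls, Benjamini-Hochberg adjusted p under 0.05). The median log2 change, batch 2 over batch 1, was -0.55 over the members and 0.013 over all genes, and 8 members were lower by at least 2-fold, as were 1.48% of all genes. For 16 members all 4 controls of batch 2 were below all 4 controls of batch 1, an ordering that 20.4% of genes had. HMGCS1 differed most, at 69.6 ± 38.0 CPM in the controls of batch 2 and 363 ± 53.3 CPM in the controls of batch 1 (SD, n = 4 each), 5.29-fold lower in batch 2 (log2 change -2.40 ± 0.34 SE; edgeR adjusted p = 1.18e-05). MSMO1 followed at -1.43 ± 0.37, INSIG1 at -1.33 ± 0.34, SQLE at -1.27 ± 0.21, and IDI1 at -1.05 ± 0.21 (edgeR adjusted p = 0.00420, 0.00330, 7.60e-05 and 0.000426). DHCR7, FDPS and LSS, which peroxide did not change past the threshold, were lower in batch 2 by log2 changes of -1.14, -1.12 and -1.12. SREBF2 was lower as well, at -0.73. The 2 higher members were MBTPS2 (0.75 ± 0.10; edgeR adjusted p = 3.72e-06) and LPIN1 (0.34 ± 0.08; 0.00146). TM7SF2, PMVK, NPC1, SC5D and SREBF1 had log2 changes between -0.26 and 0.06 and were not called. The calls of EBP (-0.34, edgeR adjusted p = 0.0437) and SCAP (-0.20, 0.0318) were both lost with total-count scaling (edgeR adjusted p = 0.193 and 0.438). EBP also lost its call without peroxide replicate 7 or control replicate 1, 3, 4, 6, 7 or 8 (edgeR adjusted p of 0.0506 to 0.140), and SCAP without control replicate 1, 4, 5 or 8 (0.0545 to 0.0988).

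**Figure D3:**
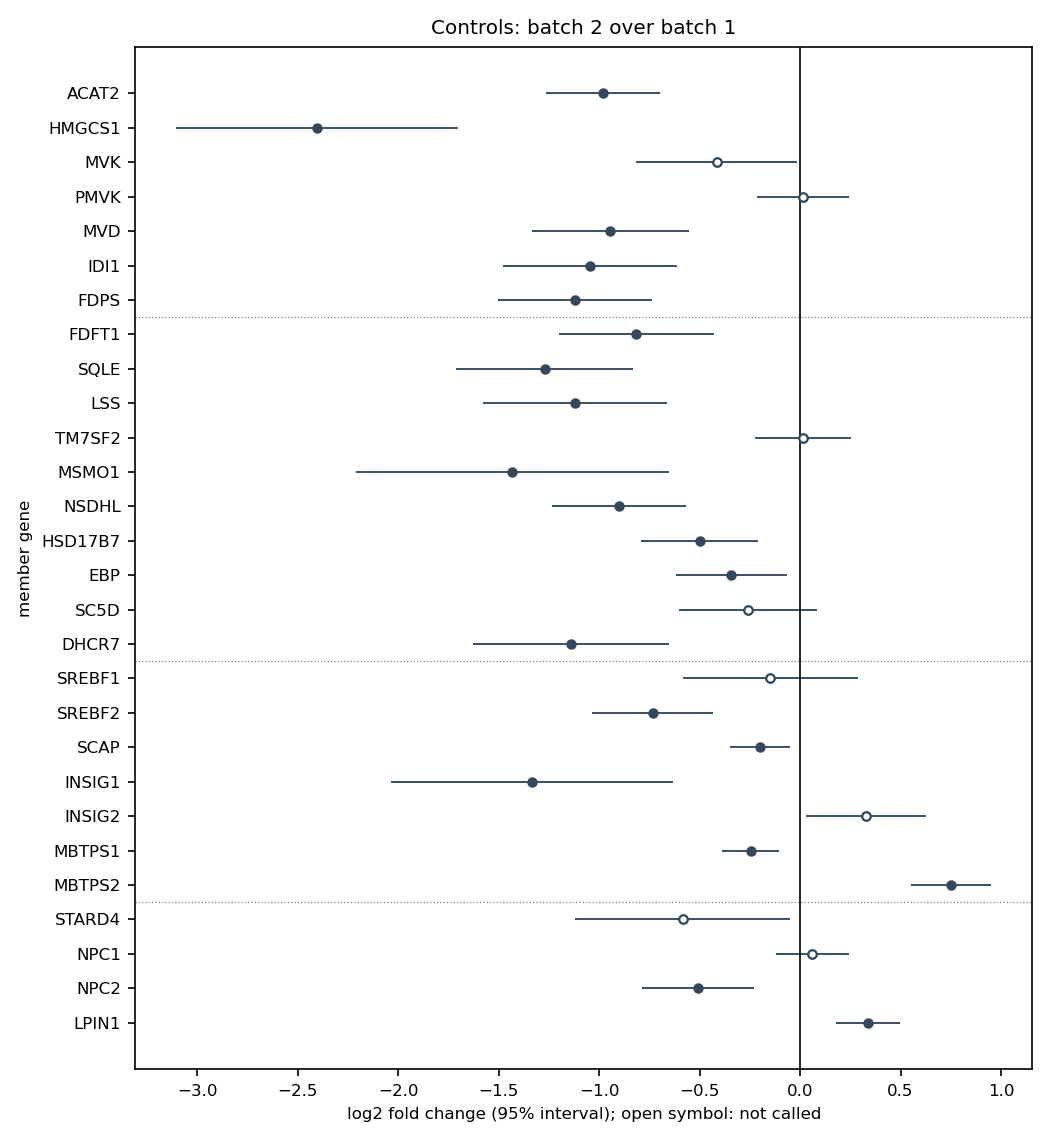
Log2 fold change of each tested member between the untreated controls, batch 2 over batch 1, with its 95% interval. Filled symbols passed the adjusted p threshold of 0.05, and most lie left of 0, with HMGCS1 at -2.40 and MBTPS2 at 0.75 as the ends.

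The peroxide response was tested in each batch within 1 fit. In batch 2, 6 members rose and 3 fell, where 17.9% of all genes rose and 17.8% fell. In batch 1, 11 rose and 3 fell, where 21.4% of all genes rose and 19.5% fell. IDI1, HMGCS1, TM7SF2, HSD17B7 and STARD4 rose in both batches, and MBTPS2 fell in both. IDI1 rose by a log2 change of 1.78 ± 0.21 in batch 2 and 2.02 ± 0.21 in batch 1 (SE; edgeR adjusted p = 1.36e-06 and 1.34e-07). MBTPS2 changed by -0.52 ± 0.09 in batch 2 and -0.69 ± 0.10 in batch 1 (edgeR adjusted p = 0.000232 and 2.17e-05). The summed level of the mevalonate arm was 781 ± 256 CPM in peroxide and 518 ± 113 CPM in control libraries of batch 2, and 2063 ± 244 CPM in peroxide and 1202 ± 102 CPM in control libraries of batch 1 (SD, n = 4 each). The squalene and sterol arm summed to 1087 ± 370 CPM in peroxide and 865 ± 213 CPM in control libraries of batch 2, and to 2098 ± 178 CPM in peroxide and 1616 ± 103 CPM in control libraries of batch 1. The peroxide libraries of batch 2 thus stayed below the mean of the untreated controls of batch 1 in both sums.

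The difference in response between batches was itself significant for SC5D and NPC1, the only 2 of 28 members called, both with a smaller response in batch 2 (3.02% of all genes had a call in this direction and 1.87% in the other). Of the members, 4 had an unadjusted p under 0.05. The share of all genes under that unadjusted threshold is not given, so this count cannot be set against a background. SC5D had 66.6, 39.8, 44.1 and 50.1 CPM in the peroxide libraries of batch 2, against 52.7, 38.1, 40.7 and 42.7 CPM in the controls. Batch 1 gave 122, 91.8, 120.3 and 155 CPM in peroxide libraries, against 47.3, 40.5, 61.4 and 56.6 CPM in controls. The groups overlapped in batch 2 and did not in batch 1. Its log2 change was 0.21 ± 0.16 in batch 2 and 1.24 ± 0.16 in batch 1, a difference of -1.03 ± 0.23 (SE; edgeR adjusted p = 0.0138).

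NPC1 had 67.5, 53.9, 61.5 and 56.6 CPM in the peroxide libraries of batch 2, against 67.7, 57.5, 60.7 and 57.0 CPM in the controls. In batch 1 it had 74.1, 88.0, 88.2 and 84.5 CPM in peroxide libraries, against 53.2, 61.7, 60.4 and 57.9 CPM in controls. The levels of NPC1 were alike in the 3 groups other than the peroxide libraries of batch 1. Its log2 change was -0.018 ± 0.087 in batch 2 and 0.52 ± 0.09 in batch 1, a difference of -0.54 ± 0.12 (SE; edgeR adjusted p = 0.0151), and this call was lost without control replicate 1 (0.0523). For the other members the difference between batches did not pass the threshold, which does not show that they responded alike. For SQLE, for one, the log2 change was 0.35 ± 0.21 in batch 2 and 0.85 ± 0.21 in batch 1.

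**Figure D4:**
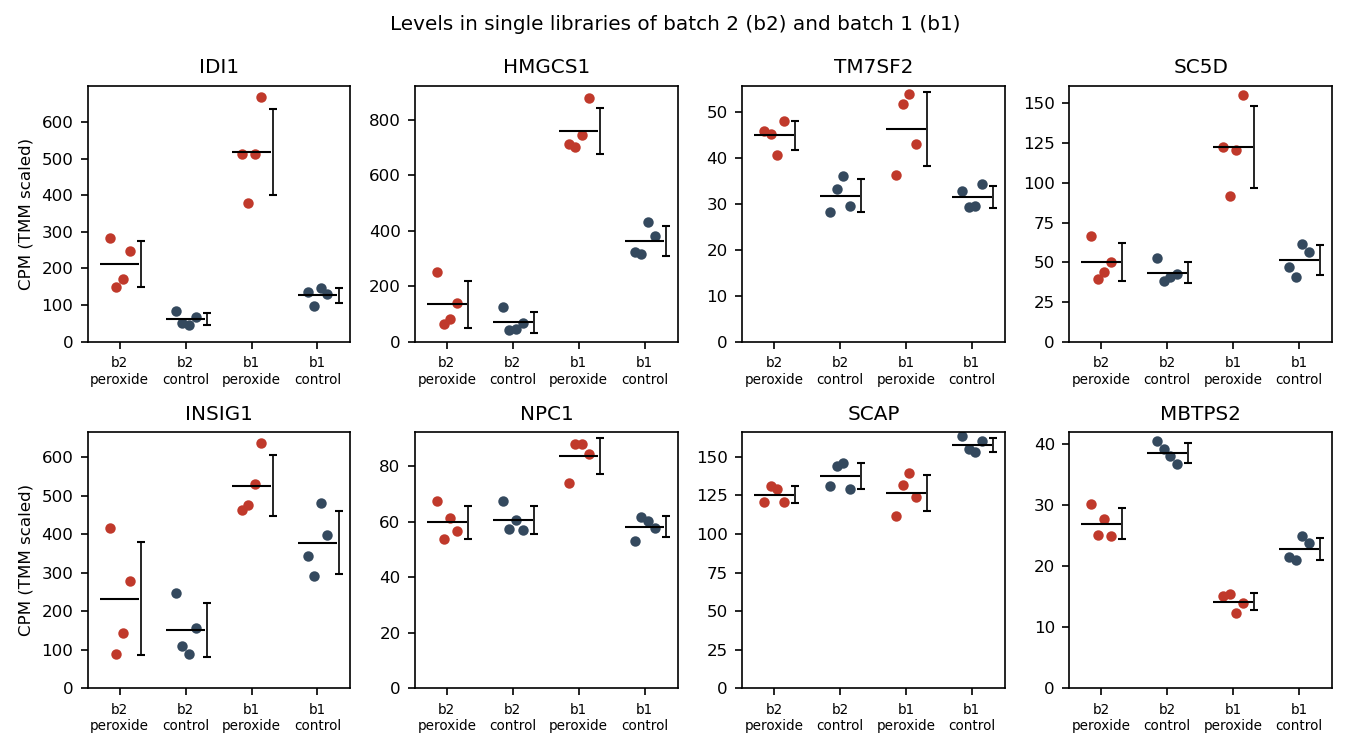
CPM of 8 members in each library (points), with the mean (long line) and SD (bar) of the 4 libraries of each group and batch. IDI1 separates the groups in both batches, SC5D and NPC1 are high in the peroxide libraries of batch 1, and MBTPS2 is lower with peroxide in both batches.

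Libraries of 1 group and batch differed from each other in many members at once. Peroxide replicate 5 had the highest level of its 4 for 22 of 28 members, where it was highest for 24.7% of all genes, and control replicate 5 was highest of its 4 for 21 of 28, where it was highest for 28.6% of all genes. Peroxide replicate 6 was lowest for 21 members, against 29.5% of all genes. In the controls of batch 2, the lowest library was replicate 7 for 11 members and replicate 6 for 10, against 23.9% and 22.8% of all genes. In batch 1, peroxide replicate 1 was lowest for 17 members, where it was lowest for 35.5% of all genes. Control replicate 3 was highest for 18 members, against 23.4% of all genes, and control replicate 2 was lowest for 15, against 33.3%. The members' median SD of log2(CPM + 1) was 0.376 in peroxide and 0.252 in control libraries of batch 2, where genes with at least 5 CPM had 0.128 and 0.106. In batch 1 the members' median SD was 0.188 in peroxide and 0.164 in control libraries, where those genes had 0.161 and 0.130. MSMO1 spanned 4.77-fold over the peroxide libraries of batch 2, INSIG1 4.62-fold and HMGCS1 3.91-fold, each highest in replicate 5 and lowest in replicate 6. Reads not aligned uniquely made up 45.8% in peroxide replicate 5 and 35.7% in peroxide replicate 6, and 32.2% in control replicate 5 against 31.8% in control replicate 6, and their part in this spread was not tested. Without peroxide replicate 5 and control replicate 1, the 2 libraries with most such reads, 9 members rose and 4 fell, and MVK, MVD, EBP and NPC1 lost their calls. The share of all genes called without these libraries is not given.

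The promoter windows, used for 26 of the 29 members, can be set beside these groups. ACAT2, FDFT1 and SQLE had no window in use, so SQLE, which rose, is not counted below. Of the members with a window, 17 held CCAAT in any window, where 41.4% of tested genes did. Of the 12 members with a window that rose after peroxide, 11 held it, NPC1 being the exception. None of the 4 that fell held it, and 6 of the 9 that were not called did. Of the 15 members that were lower in the controls of batch 2 and had a window in use, 13 held it. The TCACNCCAC form of the sterol regulatory element occurred in 0.883% of all windows, and SREBF2 was the only 1 of the 26 members with it. A match is a run of letters and not a measured site, both motifs were chosen with the results known, and members with several listed starts had more windows to hold a match.

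**Figure D5:**
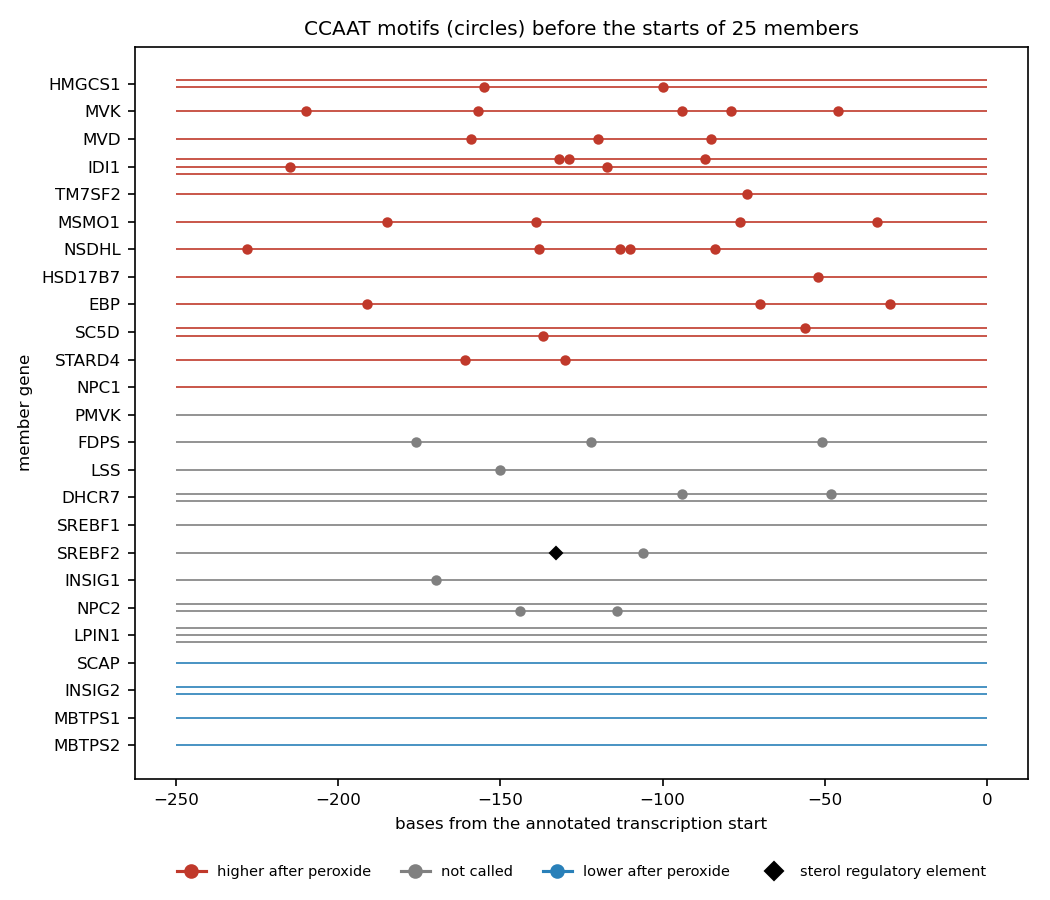
Positions of CCAAT (circles) and of the sterol regulatory element (diamond) in the 250 bases before each listed start of the tested members with a window, in bases from the start. The colours give the peroxide call, with 11 of 12 higher members and 0 of 4 lower members holding CCAAT.

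Genes next to this pathway were counted from 5 lists chosen by function. Of their 72 genes 69 were tested, and 15 rose and 8 fell, which is no more often than the 24.1% and 24.3% of all genes. In the isoprenoid branch 6 of 14 rose and 3 fell. RABGGTB, a subunit of the enzyme that prenylates Rab proteins, and GGPS1, the geranylgeranyl diphosphate synthase, rose by log2 changes of 0.69 ± 0.10 and 0.64 ± 0.11, FNTA, a subunit of the farnesyltransferase, rose by 0.44 ± 0.09, and ICMT, which methylates prenylated proteins, changed by -0.50 ± 0.07 (edgeR adjusted p = 1.30e-05, 7.75e-05, 0.000239 and 2.65e-06). In the esterification and efflux list none of 11 tested rose and 1 fell, SOAT1, which esterifies cholesterol (-0.23 ± 0.07; edgeR adjusted p = 0.0149), while ABCG1, a sterol exporter, had 44.2 ± 11.1 CPM in peroxide and 55.0 ± 14.1 CPM in control libraries (SD, n = 8 each; edgeR adjusted p = 0.0967). LPCAT3 and ABCG4 of that list were not called, at 0.17 and 0.45. Of 17 sterol transport genes 2 rose and 1 fell, with STARD5, a sterol carrier, at 0.93 ± 0.20, OSBP, the oxysterol binding protein, at 0.18 ± 0.07, and VAPB, its membrane anchor, at -0.23 ± 0.05 (edgeR adjusted p = 0.000644, 0.0346 and 0.000840). The OSBP call was lost with total counts, no filter, no batch term or either batch alone, and without peroxide replicate 1, 5 or 6 or control replicate 1, 4, 5, 6 or 7 (edgeR adjusted p of 0.0538 to 0.305). STARD3 was at 0.18 and was not called (edgeR adjusted p = 0.0503).

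Of 20 regulators in the endoplasmic reticulum and Golgi, 5 rose and 3 fell. RNF145, a ubiquitin ligase of the endoplasmic reticulum, averaged 32.9 ± 5.66 CPM in peroxide and 85.8 ± 15.7 CPM in control libraries (SD, n = 8 each; log2 change -1.37 ± 0.11; edgeR adjusted p = 2.77e-09). Its log2 change was -0.93 ± 0.08 in batch 2 and -1.82 ± 0.08 in batch 1, and that difference of 0.89 passed the test (edgeR adjusted p = 0.000130). ERLIN2, a membrane protein of the same compartment, changed by -0.55 ± 0.05, and the ubiquitin ligases RNF139 and SYVN1 rose by 0.52 ± 0.10 and 0.46 ± 0.08 (edgeR adjusted p = 2.78e-08, 0.000249 and 4.26e-05). Of 7 further sterol enzymes 2 rose and none fell. POR, the reductase that passes electrons to SQLE and CYP51A1, averaged 92.8 ± 12.9 CPM in peroxide and 44.5 ± 3.19 CPM in control libraries (SD, n = 8 each; log2 change 1.06 ± 0.08; edgeR adjusted p = 5.33e-10). ACAT1, the mitochondrial thiolase, rose by 0.18 ± 0.05, while LBR and CYB5A were not called, at -0.19 and -0.16 (edgeR adjusted p = 0.00563, 0.0725 and 0.139).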

How the data were processed

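RNA was taken from Jurkat E6-1 cells with TRIzol, and libraries were made with a TruSeq kit, per the labels' protocols. The authors deposited 1 table of raw counts per library. The submitters' processing notes name STAR 2.7.1a, HTSeq 0.6.1 and build hg19, with no role given, and neither the annotation nor the strand setting was stated. Of the 60662 gene identifiers, 99.6% were matched to a symbol. The 5 rows that name no gene held 43.5% to 57.6% of each library's reads and were left out.

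Counts were filtered (filterByExpr by group), scaled by TMM and fitted with batch and group in edgeR 4.0.16 (R 4.3.3). A quasi-likelihood test with Benjamini-Hochberg adjustment over 14092 genes gave calls at adjusted p under 0.05. A batch by group interaction gave the effects per batch, the difference between them and the batch difference in controls. CPM values use TMM-scaled library sizes. Precision is limited by reads in genes, from 5556553 to 15720881 per library, and standard errors include the spread between libraries. The fit was also run on simulated data, in which each gene was drawn independently. Genes not changed on purpose had no batch difference there, unlike the members here, so no conclusion is drawn from that run.

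Alternatives were other scalings, no filter, single libraries left out, leaving out the 2 libraries richest in non-unique alignments, no batch term, a replicate block, each batch alone, and DESeq2 1.42.0. All members are named, and from each other list up to 4 tested genes with the smallest p-values and a mean of at least 1 CPM. The members and lists were chosen with earlier results of these data known. Exon overlaps and lengths came from GENCODE 29.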

Additional observations from a re-analysis of the deposited data

Results flagged for a closer look

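NPC2 had 41.1 CPM in peroxide replicate 2, far from the other 7 peroxide libraries, of which the next was at 30.6 CPM. The gap was large for the range of the group by Dixon's test. Of 56 groups examined this was the only 1, where chance marks about 1 in 20.

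SC5D responded differently in the batches. The difference of its peroxide effects, batch 2 minus batch 1, was -1.03 on the log2 scale (edgeR adjusted p = 0.0138). For NPC1 the same difference was -0.54 (edgeR adjusted p = 0.0151). RNF145, a neighbouring gene that fell in both batches, differed by 0.89, so that its fall was smaller in batch 2 (edgeR adjusted p = 0.000130).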

How the results depend on the processing

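The members called after peroxide were 13 higher and 4 lower with DESeq2 and with DESeq2-type size factors, 11 and 5 with total counts, 16 and 5 with no filter, and 14 and 3 in batch 1 alone. Without the batch term 7 were higher and 2 lower, and in batch 2 alone 6 were higher, with NPC1 at -0.016 there (edgeR adjusted p = 0.900), the opposite sign. EBP and NPC1 lost their calls with total counts (edgeR adjusted p = 0.0640 and 0.0631). Without the batch term, HMGCS1, MVK, MVD, SQLE, NSDHL, EBP, INSIG2 and MBTPS1 lost theirs. In batch 2 alone HMGCS1, MVK, MVD, SQLE, MSMO1, SC5D, SCAP and NPC1 lost theirs, and in batch 1 alone NSDHL, EBP, INSIG2 and MBTPS1, in fits with 8 libraries. Batch 1 alone called INSIG1, SREBF2 and LPIN1 higher and PMVK lower. The cause of these changes was not tested. Shares of all genes called under the settings of this section are not given, so its counts cannot be set against a background. Leaving out single libraries gave 12 to 17 higher and 3 to 5 lower, and without peroxide replicate 6 FDFT1, DHCR7 and SREBF2 passed the threshold (edgeR adjusted p = 0.0252, 0.0367 and 0.0244). In the controls, 16 to 19 members were lower and 2 to 3 higher in batch 2. The interaction with no filter called 1 member higher and 4 lower. With single libraries left out it called 0 higher throughout and 1 to 3 lower. Of the neighbouring genes, 16 were lower with total counts, 9 were higher in batch 1 alone, 5 were lower in batch 2 alone, and single libraries left out gave 12 to 17 higher and 7 to 10 lower. The labels do not tie replicate numbers across groups, and the numbers were not taken as pairs. Each library's deviations from the mean of its batch and group were correlated, over genes with at least 5 CPM. These deviations correlated between -0.219 and 0.296 for same-numbered libraries. For 3 of 8 peroxide libraries (replicates 1, 2 and 5) the best match among the controls of the batch had their own number. With the replicate block 16 members were higher and 4 lower, FDFT1, DHCR7 and INSIG1 being added (edgeR adjusted p = 0.0408, 0.00905 and 0.00106), and OSBP lost its call (0.0639). CYP51A1 was too shallow to test, at 22 reads in all peroxide and 32 in all control libraries.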
